A study of Caenorhabditis elegans with 2 samples.

Results

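The translation elongation factor and eIF5A genes of Caenorhabditis elegans are described here through binding of the nuclear hormone receptor NHR-11. The 8 genes, eef-1A.1, eef-1A.2, eef-1B.1, eef-1B.2, eef-1G, eef-2, iff-2 and iff-1, were listed by name, out of 19973 protein-coding genes and 46890 annotated genes. For each of them, every peak with its summit within 2000 bp of the gene 5' end was taken. The genes were chosen by their names together with the peak signals of these data, so their signals, ranks and positions are given as a description without a test.

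The data came from 1 group, 2 biological replicates of whole late embryos, male and female pooled, with no age given. The strain, OP305, carried the mutation unc-119(ed3) on chromosome III and the transgene insertion wgIs305, which encodes NHR-11 with an eGFP tag. The assay was ChIP-seq, which sequences the DNA pulled down with a protein, here the tagged receptor, and the antibody was labelled nhr-11. All cell types of the embryo were mixed, and peaks carry no expression values, so no cell type could be checked. No second condition was labelled, and the possible control that the labels name was not analysed here.

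In translation elongation, eEF1A (made by eef-1A.1 and eef-1A.2) brings aminoacyl-tRNA to the ribosome as a GTPase. The eEF1B complex, with its exchange subunits from the eef-1B genes and the scaffold subunit eEF1G, recharges eEF1A with GTP. The GTPase eEF2 then moves the ribosome along the mRNA, and eIF5A, which carries the modified amino acid hypusine, helps at stalled peptide bonds. In C. elegans, iff-1 is the eIF5A gene needed in the germ line, whereas iff-2 acts in the soma. The eef-1A.1 promoter, also called eft-3, is a common driver of broad transgene expression in this worm.

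The strongest peak of the 8 genes lay just upstream of iff-2. It is shown first because it alone of the members' peaks was in the authors' list of reproducible peaks. The next sequences are the promoter-nearest peaks of 4 other members. All are RefSeq WBcel235 (ce11) sequence around a summit, on the strand of the gene. Capitals mark a TTTCAG match on either strand in the iff-2 and eef-1B.1 sequences, and in those of eef-1A.2 and eef-1G a run of 15 bases that both peaks hold. The eef-1A.1 sequence has no capitals because none of these letters fell in it.
iff-2, chrII:8561304-8561603, minus strand: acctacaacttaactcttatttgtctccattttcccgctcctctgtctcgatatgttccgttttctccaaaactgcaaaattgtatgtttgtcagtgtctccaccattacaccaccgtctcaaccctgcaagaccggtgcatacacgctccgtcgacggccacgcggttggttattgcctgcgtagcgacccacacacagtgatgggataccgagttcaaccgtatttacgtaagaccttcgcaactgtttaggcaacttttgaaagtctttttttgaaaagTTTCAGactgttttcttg
eef-1A.1, chrIII:6971968-6972068, minus strand: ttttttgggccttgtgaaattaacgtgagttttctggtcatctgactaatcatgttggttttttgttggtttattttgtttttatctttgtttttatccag
eef-1A.2, chrX:7823282-7823382, plus strand: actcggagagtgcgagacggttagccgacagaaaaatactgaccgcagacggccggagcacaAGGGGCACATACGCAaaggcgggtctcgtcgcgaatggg
eef-1B.1, chrIII:7973187-7973287, minus strand: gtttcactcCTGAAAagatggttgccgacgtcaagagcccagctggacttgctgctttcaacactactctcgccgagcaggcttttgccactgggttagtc
eef-1G, chrV:10965627-10965727, plus strand: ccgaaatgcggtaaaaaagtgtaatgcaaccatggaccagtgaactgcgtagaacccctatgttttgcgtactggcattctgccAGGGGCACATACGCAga

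The signal of a peak is the authors' value in the unit of their peak caller, and it ranks peaks within a list. The false discovery rate is the authors' estimate for that peak in its own list. The pooled list, called from both replicates together, held 9931 peaks with signals of 21.6 to 447 and a median of 25.9. The replicate 1 list held 25795 peaks (median 12.8) and the replicate 2 list 29222 (median 10.7). These lists reach deep into background, since 30 of the pooled peaks had a false discovery rate of at most 0.05, against 152 in replicate 1 and 47 in replicate 2. Read depth was unknown, and the replicates were not stated to be scaled to each other.

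The gene for somatic eIF5A, iff-2 (WBGene00002065, chromosome II, 8559375 to 8561367, minus strand), had the strongest signal of the 8 in every list. The pooled peak at chromosome II 8561275 to 8561630 had a signal of 67.8, and its summit lay intergenic, 86 bp upstream of the 5' end. Replicate 1 gave it 25.9, with the summit 103 bp upstream, and replicate 2 gave 41.8, with the summit 82 bp upstream. The site ranked 36 in the pooled list, 542 in replicate 1 and 23 in replicate 2. Its false discovery rate was 0.0986 in the pooled list, 0.221 in replicate 1 and 0.0110 in replicate 2. Among genes, iff-2 stood 46th of the 6626 protein-coding genes with a pooled peak in the window, 2.53 times their median of 26.8. It stood 485th of 13112 in replicate 1 and 33rd of 14022 in replicate 2. The pooled signal was close to the sum of the replicate signals at the same place, 67.7.

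A second and weaker peak lay inside iff-2. Its pooled signal was 28.8, rank 3147, with the summit 460 bp downstream of the 5' end in a coding exon of the gene. Replicate 1 gave it 14.0 (rank 9818, false discovery rate 0.791), and in replicate 2 it ranked 13612 with a rate of 0.829. The snoRNA gene F54C9.12, one of the small RNAs that guide chemical modification of other RNAs, is nested in an intron of iff-2, 595 bp from the 5' end on the same strand. The weaker peak covered 44 of the 82 bp of F54C9.12 in the pooled list, 20 bp in replicate 1 and 44 bp in replicate 2. The upstream peak touched none of it. The upstream peak exceeded the peak inside the gene 2.36 times in the pooled list, 1.85 times in replicate 1 and 3.80 times in replicate 2.

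**Figure D1:**
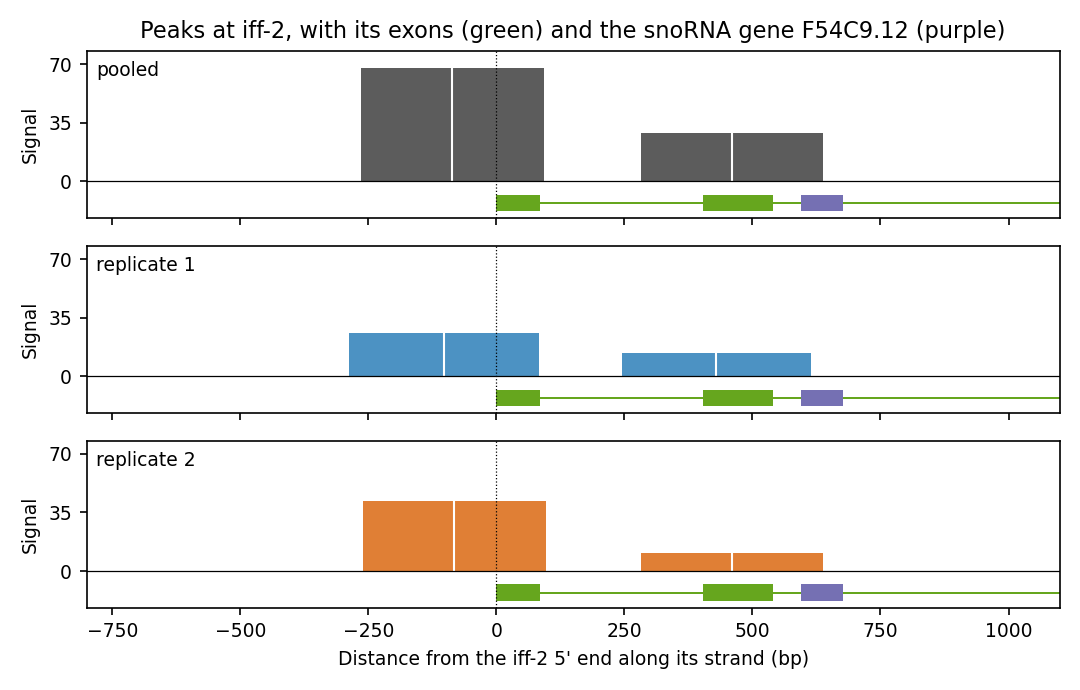
Peaks at iff-2 in the pooled list and in each replicate, with distance from the gene 5' end in bp on the horizontal axis and the authors' signal on the vertical axis. Bars span the peaks and white lines mark summits, and the upstream bar is the higher in each panel, at 67.8, 25.9 and 41.8.

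The germline eIF5A gene iff-1 (WBGene00002064, chromosome III, 9745862 to 9747193, minus strand) had no pooled peak and no replicate 1 peak in the window. In replicate 2 it had a peak with a signal of 10.8 (rank 14390, summit 457 bp upstream) and another of 8.93 (rank 23035, 463 bp downstream, in an intron). The false discovery rates of these were 0.844 and 0.925. The stronger summit fell in a coding exon of cdk-1, the gene of the mitotic cyclin-dependent kinase, whose 5' end was nearer at 178 bp. In replicate 2, then, iff-2 had 41.8 and iff-1 had 10.8, a ratio of 3.87 (1.95 on the log2 scale). In the pooled list and in replicate 1 no ratio was possible, because iff-1 had no listed peak. The coding sequences of iff-2 and iff-1 were 78.7% identical, and their proteins matched at 135 of 161 residues. With the 5' ends of all transcripts allowed, iff-1 also gained a pooled peak, at 29.4. It lay 2897 bp downstream of the gene 5' end, beyond the 3' end of iff-1.

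The eEF1A genes each had a replicate 2 peak about the same distance upstream. For eef-1A.1 (WBGene00001168, chromosome III, 6970026 to 6971712, minus strand) a summit lay 306 bp upstream of the 5' end, at chromosome III 6971840 to 6972195. Its signal was 26.6 in the pooled list (rank 4457) and 27.3 in replicate 2 (rank 175), and replicate 1 had no peak overlapping it. The summit fell in the annotated microRNA gene cel-mir-5549, whose 5' end was nearest at 67 bp. The 5' end of rfc-4, a coding gene on the opposite strand that begins 541 bp upstream, was also nearer than that of eef-1A.1. For eef-1A.2 (WBGene00001169, chromosome X, 7823654 to 7825769, plus strand) the summit lay 322 bp upstream, within a peak on chromosome X from 7823154 to 7823509. Its signal was 22.1 in the pooled list (rank 9108) and 20.1 in replicate 2 (rank 960). Replicate 1 had no overlapping peak there either. The false discovery rates of these near peaks were 0.830 in the pooled list and 0.112 in replicate 2 at eef-1A.1, and 0.947 and 0.318 at eef-1A.2. Replicate 2 held 1 more summit in the eef-1A.2 window, 1867 bp upstream with a signal of 10.4 (rank 15922). The 5' end of the noncoding RNA gene R03G5.8 was nearer to the eef-1A.2 summit, at 193 bp.

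A different peak gave eef-1A.1 its highest pooled signal. At chromosome III 6972671 to 6973026 the pooled signal was 33.3 (rank 1540), with 21.4 in replicate 1 (rank 1589) and 10.4 in replicate 2 (rank 16149). Its false discovery rates were 0.562, 0.376 and 0.863 in that order of lists. This summit lay 1137 bp upstream of eef-1A.1 and inside a coding exon of rfc-4, which encodes a subunit of the DNA replication clamp loader. The rfc-4 5' end was nearer, at 596 bp. Over the whole window, eef-1A.1 had 33.3 and eef-1A.2 had 22.1 in the pooled list, a log2 ratio of 0.59, and 27.3 and 20.1 in replicate 2, a log2 ratio of 0.44. Within 1000 or 500 bp the pooled log2 ratio was 0.26. Replicate 1 listed no eef-1A.2 peak in the window, so it gave no ratio. Just outside the window, 2378 bp upstream of eef-1A.2, a pooled summit had a signal of 40.7 (rank 537), and in replicate 1 a summit 2388 bp upstream had 34.9.

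Both eEF1A genes encode the same protein of 463 residues, and their coding sequences matched at 1305 of 1389 bases. A further replicate 2 peak inside the coding exon of eef-1A.1, with a signal of 10.3 (rank 16587), matched another place in the genome at 93.5% identity over 356 bp. Counting each list separately, none of the other 22 peaks of the 8 genes matched elsewhere over 50 bp or longer at an identity of 90% or higher, the upstream peaks of both eEF1A genes included.

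The exchange factor genes differed in whether any peak was listed. For eef-1B.1 (WBGene00018846, chromosome III, 7972382 to 7973386, minus strand) the peak at chromosome III 7973059 to 7973414 had a signal of 26.6 in the pooled list (rank 4426) and 18.5 in replicate 2 (rank 1558), and none in replicate 1. Its false discovery rate was 0.827 in the pooled list and 0.392 in replicate 2. Its summit lay 149 bp downstream of the 5' end, in a coding exon, and the noncoding RNA gene F54H12.9 overlapped the same start on the opposite strand. For eef-1B.2 (WBGene00012768, chromosome IV, 15037331 to 15039551, plus strand) no list held a summit in the window. The nearest summits lay 2349 bp downstream in replicate 2, 2616 bp downstream in replicate 1 and 11977 bp downstream in the pooled list. The proteins of the pair matched at 150 of 265 aligned positions, so they are more distant than the other pairs.

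At eef-1G (WBGene00008920, chromosome V, 10965719 to 10967922, plus strand) a peak was listed in replicate 2 alone. Its signal was 22.2 (rank 539, false discovery rate 0.239), and its summit lay 42 bp upstream of the 5' end, at chromosome V 10965499 to 10965854. The 5' end of ctf-4, a gene of sister chromatid cohesion and replication, lay 180 bp upstream of that of eef-1G on the opposite strand. Of the 8 genes, eef-1G is the other host of snoRNA genes, with F17C11.15 and F17C11.14 in its introns, 979 and 1771 bp from its 5' end. No peak of any list touched either of them. The nearest summits to F17C11.15 were 1021 bp away in replicate 2, 5607 bp in replicate 1 and 6265 bp in the pooled list.

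Signals at eef-2 (WBGene00001167, chromosome I, 9163531 to 9166952, plus strand), the translocase gene, were near the lower end of the pooled list and near the middle of the replicate 1 list. The summit lay 13 bp upstream of the 5' end in the pooled list, with a signal of 22.1 (rank 9233, false discovery rate 0.949). In replicate 1 the peak there had 12.0 (rank 15647), as did another summit 1118 bp upstream in a coding exon of clsp-1 (rank 15470), and replicate 2 had no peak in the window. In order of pooled signal the genes were iff-2 (67.8), eef-1A.1 (33.3), eef-1B.1 (26.6), eef-1A.2 (22.1) and eef-2 (22.1). In replicate 2 the order was iff-2 (41.8), eef-1A.1 (27.3), eef-1G (22.2), eef-1A.2 (20.1), eef-1B.1 (18.5) and iff-1 (10.8). In replicate 1 it was iff-2 (25.9), eef-1A.1 (21.4) and eef-2 (12.0). With 2 replicates and a gene missing from a list in most cases, no spread was estimated for these orders. Neighbours in them, iff-2 and eef-1A.1 in replicate 1 included, could not be told apart.

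**Figure D2:**
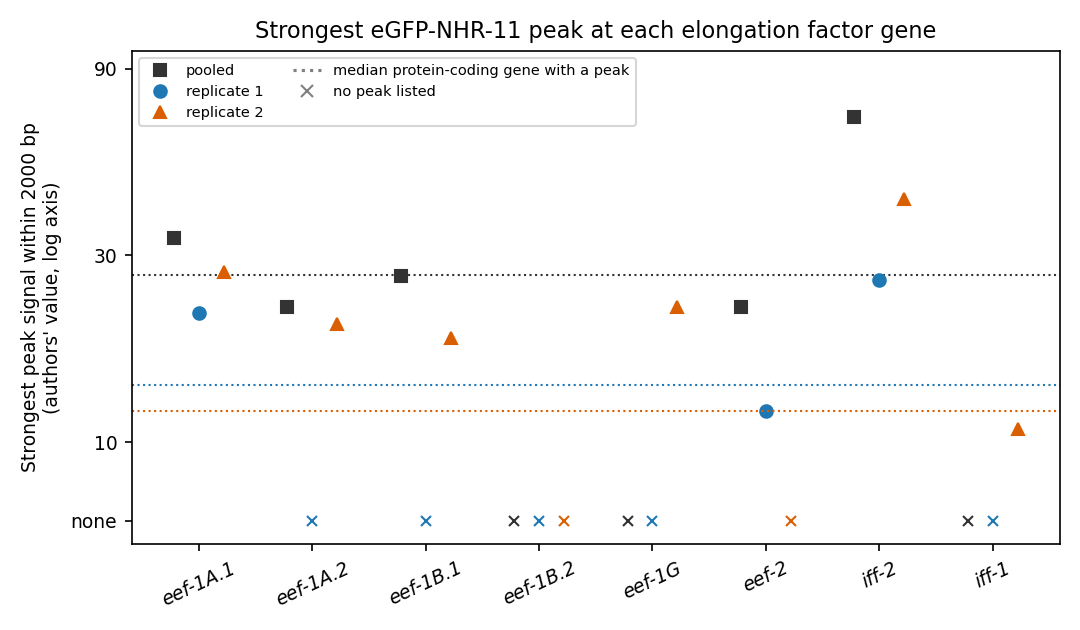
Strongest signal within 2000 bp of the 5' end of each gene (log axis) in the pooled list, replicate 1 and replicate 2, with crosses where no peak was listed and dotted lines at the medians of protein-coding genes with a peak. The iff-2 points, at 67.8, 25.9 and 41.8, are the highest of their lists among the 8 genes, and the medians of protein-coding genes are 26.8, 14.0 and 12.0.

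Counts over the whole window lay above the share of protein-coding genes in the pooled list and below it in replicate 1. Of the 8 genes, 5 had a pooled summit within 2000 bp, against 33.2% of protein-coding genes and 34.6% of all annotated genes. In replicate 1, 3 of the 8 had a summit, against 65.6% of protein-coding genes, and in replicate 2 there were 6, against 70.2%. Both replicates had a summit at 2 of the 8, iff-2 and eef-1A.1, against 50.2% of protein-coding genes and 52.4% of all annotated genes. A replicate 2 summit without a replicate 1 summit was found at 4 of the 8, against 20.0% of protein-coding genes. The median of the strongest pooled signals was 26.6 over the 5 members with a peak and 26.8 over protein-coding genes with a peak. Taking the 9931 strongest peaks of 1 replicate in place of the pooled list gave 2 genes with replicate 1, namely eef-1A.1 and iff-2. With replicate 2 it gave 5, namely eef-1A.1, eef-1A.2, eef-1B.1, eef-1G and iff-2, so eef-1G was listed and eef-2 was not. The share of protein-coding genes under this cut is not given here, so these counts have no background beside them.

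Fewer passed stricter limits. The iff-2 peak was in the authors' thresholded list, which made 1 of 8 genes, against 0.596% of protein-coding genes. None of the 8 had a pooled peak at a false discovery rate of at most 0.05, against 0.195% of protein-coding genes. At 0.1 iff-2 did, a limit for which that share is not given here.

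Strong peaks close to the 5' end differed between the replicates. Among the 2000 strongest peaks of replicate 2, a summit within 500 bp was found at 5 of the 8 genes (eef-1A.1, eef-1A.2, eef-1B.1, eef-1G and iff-2), against 2.98% of protein-coding genes. Among the 2000 strongest of replicate 1, it was found at 1 of the 8, iff-2, against 2.99% of protein-coding genes. A strong replicate 2 peak with no replicate 1 summit of any strength within 500 bp was found at 4 of the 8 genes. These were all but iff-2 of the 5 above, against 1.11% of protein-coding genes. Of the 595 protein-coding genes with such a replicate 2 peak, 221 had no replicate 1 summit within 500 bp. The reverse, a strong replicate 1 peak with no replicate 2 summit, was found at 0 of the 8 genes and 1.10% of protein-coding genes. The 2000-peak and 500 bp limits were chosen after the values were seen, and no test was made. With the 1000 strongest peaks the replicate 2 count was 4, without eef-1B.1, against 1.70% of protein-coding genes. With the 2000 strongest within 1000 bp it was 5, against 4.70%. The replicate 1 count was 1 at both settings, against 1.54% and 4.67%. The part that depth or sample handling played in the difference between replicates was not tested.

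**Figure D3:**
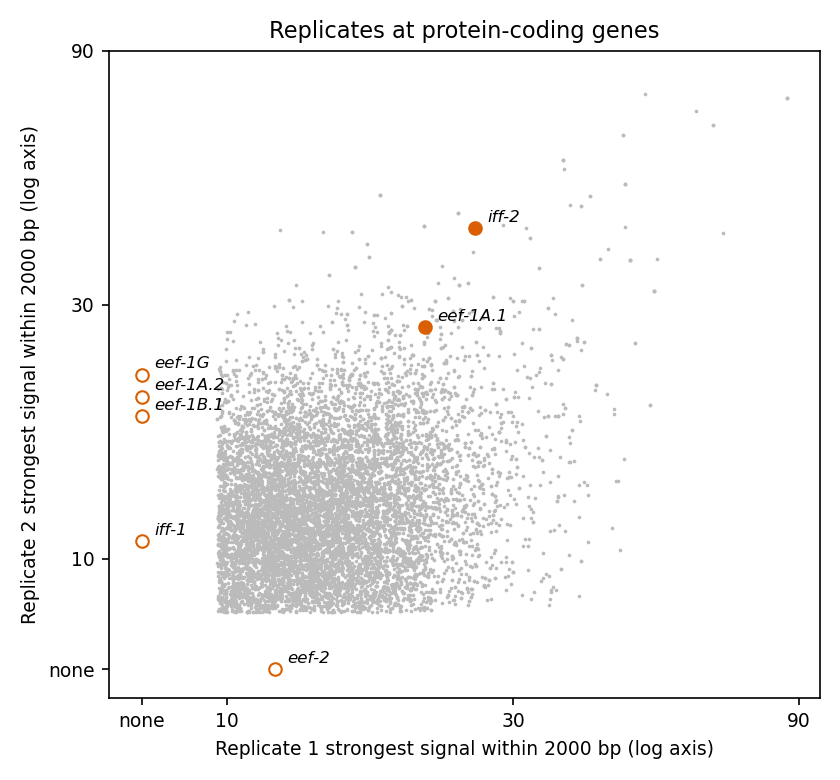
Strongest signal within 2000 bp in replicate 1 (horizontal, log axis) and replicate 2 (vertical, log axis) for protein-coding genes with a peak in both (grey points) and for 7 of the 8 genes (orange, open where 1 replicate listed none). Replicate 2 exceeded replicate 1 at iff-2 (25.9 in replicate 1 and 41.8 in replicate 2) and at eef-1A.1, whose values come from different peaks. On the edge without a replicate 1 peak lie eef-1G, eef-1A.2, eef-1B.1 and iff-1, while eef-2 lies on the edge without a replicate 2 peak.

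The ratio of replicate 1 to replicate 2 differed in direction between sites. At the upstream iff-2 peak it was -0.69 on the log2 scale, and at the weaker peak inside iff-2 it was 0.35. At the far eef-1A.1 peak, the one site of that gene found in both replicates, it was 1.05. The strongest peaks of eef-1A.1 in each replicate, which lie at different sites, gave -0.35. Over the 10029 protein-coding genes with a summit in both replicates the median was 0.23 and the SD 0.52. This background takes the strongest signal of each gene in each replicate, which may lie at different sites, unlike the ratios at a single site.

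The layout around the 5' ends was compact. At 6 of the 8 genes a coding gene on the opposite strand began within 1000 bp upstream, against 17.7% of protein-coding genes. These neighbours were rfc-4 at eef-1A.1 (541 bp between the 5' ends), aco-2, the mitochondrial aconitase gene, at eef-1B.1 (331 bp), ctf-4 at eef-1G (180 bp), clsp-1, the claspin gene of the replication checkpoint, at eef-2 (265 bp), F54C9.14 at iff-2 (935 bp) and cdk-1 at iff-1 (279 bp). A summit between such a pair cannot be given to either gene by position alone. The iff-2 summit was nearer to iff-2 than to F54C9.14, at 86 against 849 bp.

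**Figure D4:**
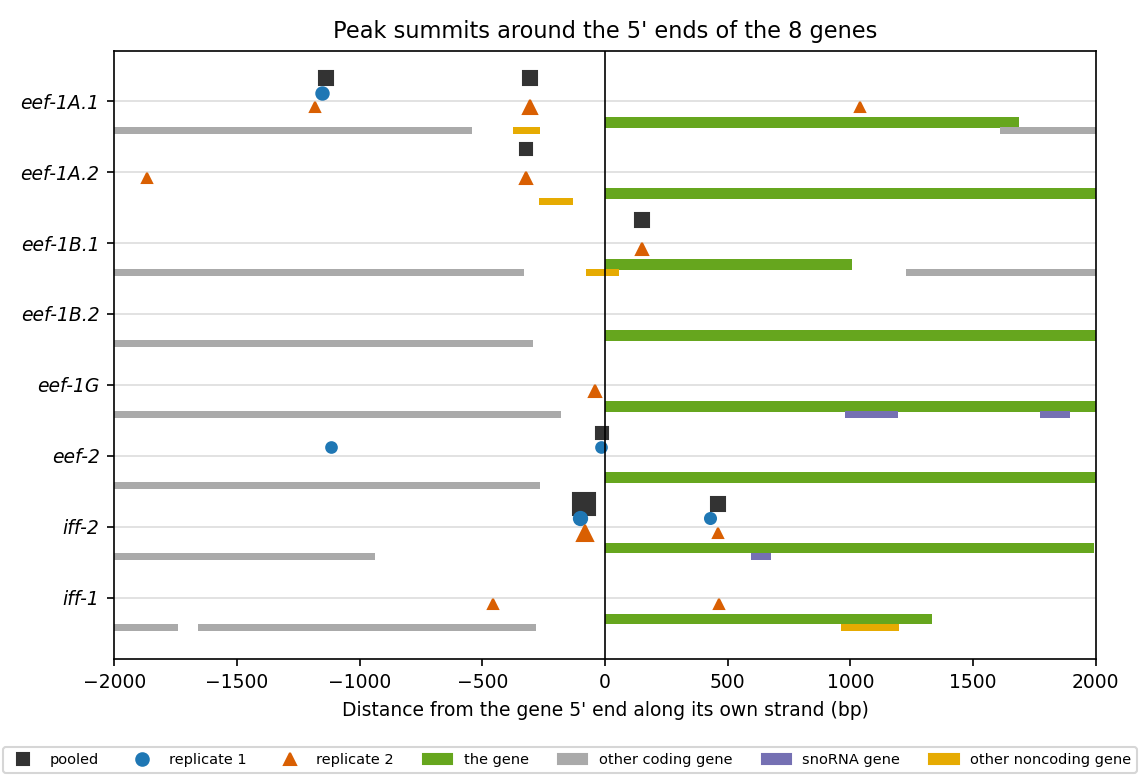
Summits within 2000 bp of the 5' ends of the 8 genes, as distance in bp along the strand of each gene, with larger symbols for higher signal and bars for annotated genes. At eef-1A.1, eef-1A.2, eef-1B.1, eef-1G, eef-2 and iff-2 the nearest summit falls within 322 bp of the 5' end, others lie up to 1867 bp away, and eef-1B.2 has none.

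Base composition of the summit windows varied. Over the 101 bp around the summit, GC content was 60.4% at iff-2 and 60.4% at eef-1A.2, 53.5% at eef-1B.1, 49.5% at eef-1G and 47.5% at eef-2. It was 30.7% at the near eef-1A.1 peak, 37.6% at the far one and 54.5% at the weaker peak inside iff-2. Windows of replicate 2 peaks without a pooled peak had 31.7% and 26.7% at iff-1. Such windows had 28.7% at the far eef-1A.2 peak and 50.5% inside eef-1A.1. The eef-1G window was also of this kind. Over the 9931 pooled windows the median was 33.7%, with quartiles of 27.7 and 40.6%.

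The peaks nearest to the 5' ends were compared letter by letter, on both strands, after the letters had been seen. Of 21 pairs among the 7 genes with such a peak, 2 shared a run of 12 or more bases. The other pairs shared runs of at most 8 to 11. The share of pairs of other peaks with such a run is not given here, so this count has no background beside it. The 15 bases shared by eef-1A.2 and eef-1G, in capitals above, spanned offsets -310 to -296 from the eef-1A.2 5' end (negative is upstream), 11 bp from the summit. At eef-1G they ran from offset -8 to 6, 34 bp from the summit. The run had 5 copies in the genome. It was in 2 of the 19973 windows from 250 bp before to 50 bp after a protein-coding 5' end (0.0100%). The eef-1A.2 copy lies outside the window of its own gene, so these 2 are not the windows of the named pair. A run of 16 bases was shared by the peaks of eef-1A.1 and eef-2, at offsets -392 to -377 at eef-1A.1 and -7 to 8 at eef-2. It had 4 copies in the genome and was in 3 of those windows (0.0150%). The eef-1A.1 copy likewise lies outside the window of its own gene.

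Within 50 bp of the strongest pooled summit, 2 of the 5 members with a pooled peak held 1 of the 7 motifs searched. The share of all pooled windows that held any of the 7 is not given here, so this count has no background beside it. On both strands, GGGTCA, a form of the hexamer that nuclear hormone receptors recognise, was found at the far eef-1A.1 summit. TTTCAG, the consensus end of worm introns, was found at eef-1B.1 on the strand opposite to the gene, where it is not an intron end of eef-1B.1. At the 5 members with a pooled peak no other of the motifs was found. Of all 9931 pooled windows, 2.14% held AGGTCA, and 1.55% held GGGTCA. The repeat GAGAGA was in 7.66% of them, TATAAA in 14.5%, and CACGTG in 1.39%. The pattern GAANNTTC was in 6.62% and TTTCAG in 17.5%. No member window held more than 1 of the 7 motifs, so no matches overlapped. The TTTCAG of the iff-2 sequence above lies farther than 50 bp from the summit.

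The genes most like iff-2 were found by the distance between log2 strongest signals in replicate 1, replicate 2 and the pooled list, over 5609 protein-coding genes with all 3 values. F54C9.14 had a distance of 0.00, because it shares the iff-2 peak. C05C10.5 and C05C10.7 on chromosome II came next, both at 0.15, with ufd-3 tied, since these 3 genes share a peak with a pooled signal of 70.6, a replicate 1 signal of 24.3 and a replicate 2 signal of 44.6.

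Peaks at other genes of translation were counted in lists by name. Of 32 initiation factor genes, 16 had a pooled summit within 2000 bp, against the 33.2% of protein-coding genes, with a median signal of 28.9. The highest were eif-3.C (42.7), the eIF4G gene ifg-1 (37.1), the eIF4E genes ife-3 (35.9) and ife-1 (33.5), and eif-3.E (33.5). Of 31 aminoacyl-tRNA synthetase genes, 9 had one (29.0%, against the same 33.2%), with a median of 26.0. Among them ears-2, for mitochondrial glutamyl-tRNA synthetase, had 55.4 in the pooled list (rank 99, 12 bp upstream), 23.3 in replicate 1 and 30.9 in replicate 2, and its peak was in the thresholded list. The next were cars-1 (35.1), gars-1 (31.6), nars-1 (28.2) and vars-1 (26.0).

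The lists closest to the elongation step were short, and their counts stand beside the same 33.2% of protein-coding genes. Of 9 genes for the modification or regulation of eIF5A and eEF2, 1 had a pooled summit, efk-1 (35.2), the kinase of eEF2, 1160 bp upstream. The hypusine genes dhps-1 and dohh-1 had none. Of 4 mitochondrial elongation factor genes, tufm-1 (34.6) and tufm-2 (24.0) had one. Of 5 termination and recycling genes, erfa-3 (28.8) and pelo-1 (23.7) had one. Apart from ears-2 no gene of these 5 lists was in the thresholded list, which held peaks at 0.596% of protein-coding genes. None had a pooled peak at a false discovery rate of at most 0.05, against 0.195% of protein-coding genes. The pooled signal of iff-2, 67.8, was above all of them.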

How the data were processed

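The authors' files were peak lists in narrowPeak layout on the ce11 build, for each of 2 replicates, for both replicates pooled, and a thresholded list of 101 peaks. Per the deposited file descriptions, the replicate lists derive from an alignment and 1 further file of a kind not stated, and the thresholded list from the pooled and replicate lists. Neither the aligner nor the caller with its settings is given in the sources used here. Each deposited signal is in the unit of the authors' caller. The deposited −log10 column was read as a q-value within each list and turned back into a false discovery rate. Lists on ce10 were not used.

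Summits were matched to gene 5' ends of the Ensembl 115 annotation (WBcel235), counted from 1, with a window of 2000 bp. Sequence was RefSeq WBcel235. Motifs were counted within 50 bp of summits, and BLAST 2.17.0 looked for other genome copies of each peak. Members, gene lists and motifs were chosen with earlier results of these data known, and no tests were made. Named were all 8 genes, their neighbours, up to 5 genes per list and the 3 genes most like iff-2. The 16 bp and 15 bp shared runs and the counts by replicate near 5' ends were added after the values were seen. The matching of summits to genes was tested on simulated data. Depth was unknown. Python 3.11.15, numpy 2.4.6, pandas 2.3.3, Biopython 1.88 and matplotlib 3.10.9 were used.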

Additional observations from a re-analysis of the deposited data

How the results depend on the processing

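The count of 5 genes with a pooled peak was 5 within 1000 bp and within 500 bp. It was also 5 by overlap of the peak interval, a looser rule where any part of a peak within 2000 bp counted. With all transcript 5' ends it was 6. It was 1 in the thresholded list, where iff-2 was the gene left, 3 in the stronger part of the pooled list (4965 peaks), and 2 to 5 with 1 replicate left out, the lower count being without replicate 2. The count of 2 genes with peaks in both replicates was 1 within 1000 bp and within 500 bp, because the shared eef-1A.1 peak lies farther out, and 3 with all transcript 5' ends and by overlap of the peak interval. At a false discovery rate of at most 0.1 in place of 0.05, the count with a pooled peak was 1 in place of 0. Apart from the thresholded list, at 0.596%, the share of protein-coding genes under these alternative settings is not given here. The other counts therefore have no background beside them. The median strongest pooled signal of 26.6 was 28.0 with all transcript 5' ends, where iff-1 entered through a peak beyond its 3' end. The median was 22.2 to 23.6 with 1 replicate left out, on the scale of single replicates. The log2 ratio of eef-1A.1 to eef-1A.2, 0.59, was 0.26 within 1000 bp or 500 bp, where the far eef-1A.1 peak drops out, and 0.44 without replicate 1. Without replicate 2 it had no value. The ratios of iff-2 to iff-1 and of eef-1B.1 to eef-1B.2 had no pooled value, as the second gene had no pooled peak in the window. The 67.8 of iff-2 was the same under all 4 alternatives of window, 5' end and overlap. These could not have lowered it, since its summit lies 86 bp from the 5' end. No paired analysis was possible because the labels gave a single group. Depth was unknown, and the number of replicates, 2, limits every value.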
